A study of Homo sapiens with 12 samples.

Results

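A set of 10 genes that carry iron into a cell, store it, release it and sense it was described in the immortalised line hCMEC/D3, derived from human brain microvessels and used to model the blood-brain barrier. The genes were selected by name as a functional set, with earlier results of these data known. All 10 were found among the 58735 genes of the deposited table: TFRC, STEAP3 and SLC11A2 (uptake), FTH1, FTL and NCOA4 (storage), SLC40A1 (export), and ACO1, IREB2 and FBXL5 (sensing). RNA sequencing covered 4 libraries of untreated cells (control), 4 of cells given SiNP of 35 nm and 4 of cells given SiNP of 58 nm. The labels give 100 µg/mL of particles and 24 h, and SiNP is taken here to mean silica nanoparticle. All 12 libraries come from this 1 cell line. The labels name neither a vehicle nor separate cultures, so the spread behind the p-values may be technical only.

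Iron bound to transferrin enters a cell through the transferrin receptor (TFRC), is reduced in the endosome by STEAP3 and crosses the endosomal membrane through SLC11A2. Spare iron is held in ferritin, a shell of heavy (FTH1) and light (FTL) chains, and is freed when NCOA4 takes ferritin to the lysosome, while SLC40A1 (ferroportin) is the known exporter. The iron regulatory proteins ACO1 (IRP1) and IREB2 (IRP2) bind a hairpin in several of these transcripts, the iron-responsive element, when iron is scarce. Binding in a 3′ UTR, as in TFRC, is known to stabilise the transcript, and binding in a 5′ UTR, as in ferritin, to block its translation. FBXL5 is the iron-sensing subunit of the ligase that marks IREB2 for destruction. In brain endothelium this system is known for moving iron from blood towards the brain.

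The hairpin is shown here because it is what ACO1 and IREB2 bind in several transcripts of the set. Each line gives 29 bases of the transcript, 5′ to 3′ and written as DNA, with the bulged C and the start of the loop (CAGTG) in capitals.

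TFRC site at 3394: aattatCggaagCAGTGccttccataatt
TFRC site at 3798: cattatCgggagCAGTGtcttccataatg
TFRC site at 3863: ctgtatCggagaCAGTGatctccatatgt
TFRC site at 3910: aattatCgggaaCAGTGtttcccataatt
FTH1 site at 65: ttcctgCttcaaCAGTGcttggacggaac
FTL site at 41: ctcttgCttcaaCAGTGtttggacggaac
SLC40A1 site at 205: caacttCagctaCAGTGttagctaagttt
SLC11A2 site at 1833: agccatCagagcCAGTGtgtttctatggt

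Positions count from 1 at the start of a GENCODE 29 transcript and mark the bulged C. The TFRC sites lie in the 3′ UTR of TFRC-201, at chr3:196050979-196051007, chr3:196050575-196050603, chr3:196050510-196050538 and chr3:196050463-196050491 on the minus strand of GRCh38. The FTH1 site lies in the 5′ UTR of FTH1-201 (chr11:61967574-61967602, minus strand), the FTL site in the 5′ UTR of FTL-201 (chr19:48965335-48965363, plus strand) and the SLC40A1 site in the 5′ UTR of SLC40A1-201 (chr2:189580661-189580689, minus strand). The SLC11A2 site lies in the 3′ UTR of SLC11A2-202 (chr12:50988269-50988297, minus strand) and was found in 5 of the 11 coding transcripts of that gene, so the gene-level values below do not separate transcripts with and without it. In all but SLC11A2, the 5 bases on either side of the 6-base loop could form 5 of 5 base pairs, G with U included, and in SLC11A2 they could form 4. SLC11A2 is shown because its element is known, and 3′ UTR matches with 4 of 5 pairs also occurred in ACO1 and IREB2, with a further TFRC match at 3845 that had 3 of 5 pairs and a stretch that overlaps the one at 3863. The FTH1 and FTL stretches shared 26 of 29 letters. The letters CNNNNNCAGTGN, read on the RNA strand only, occurred in a UTR of 43.7% of 19627 protein-coding genes. With 5 of 5 pairs they occurred in 0.810% of them (159 genes), among which were 4 of the 10 members, TFRC, FTH1, FTL and SLC40A1. UTRs differ in length, and a match is a description of letters, not a measured binding site.

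Gene reads numbered 9472317 to 10678269 per library. Genes of the mitochondrial chromosome took 3.12 ± 0.0558% of the reads in control libraries (SD, n = 4), against 1.89 ± 0.0597% with 35 nm particles and 2.89 ± 0.173% with 58 nm particles. Of 14 endothelial markers, 8 averaged at least 1 FPKM (fragments per kilobase of gene length, scaled for library size), led by ENG at 98.7 FPKM, while CLDN5 was at 0.102, KDR at 0.00893 and FLT1 at 0.0161 FPKM. The pericyte markers PDGFRB and CSPG4 averaged 22.1 and 16.3 FPKM. Expression relative to the mean of all libraries also ran with gene length and GC content across genes, in opposite directions in control and 35 nm libraries: the rank correlation with GC content averaged -0.36 in the control group, 0.33 in the 35 nm group and -0.06 in the 58 nm group, over 12173 genes that share a library. Library 1 of the 58 nm group stood apart from its group, at 0.36 for GC content and -0.32 for length, so its group is also given without it where a value turns on it, and results were recomputed with the length and GC trends removed.

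In untreated cells the set spanned a wide range of levels per gene length. FTL was the most abundant member at 1009 ± 22.2 FPKM (SD, n = 4), which ranked it 13 of the 12176 genes that averaged at least 1 FPKM. FTH1 followed at 180 ± 24.1 FPKM, rank 113, and NCOA4 at 50.5 ± 1.48 FPKM. ACO1 (22.9 ± 0.883 FPKM) and TFRC (22.9 ± 0.473 FPKM) came next with ranges that overlapped, as did those of FBXL5 (9.73 ± 0.570 FPKM) and IREB2 (9.31 ± 0.440 FPKM). STEAP3 (7.91 ± 0.396 FPKM) and SLC11A2 (4.90 ± 0.219 FPKM) were the lowest of the 9 members that passed the filter on low values. The order of the means was the same at 58 nm and, apart from IREB2 and STEAP3, which changed places with overlapping ranges, at 35 nm. The length used for each gene was the union of its exons, which lowers FPKM beside a value per transcript where the union is longer. It was 2030 bases for FTH1 against 1229 for FTH1-201, and 7887 for TFRC against 5111 for TFRC-201. For ACO1 it was 7555 against 7466 for ACO1-201, and for IREB2 10806 against 6354 for IREB2-201. For SLC11A2 it was 10145 against 4132 for SLC11A2-202. The order of members above is therefore one of FPKM and was not tested per transcript.

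**Figure D1:**
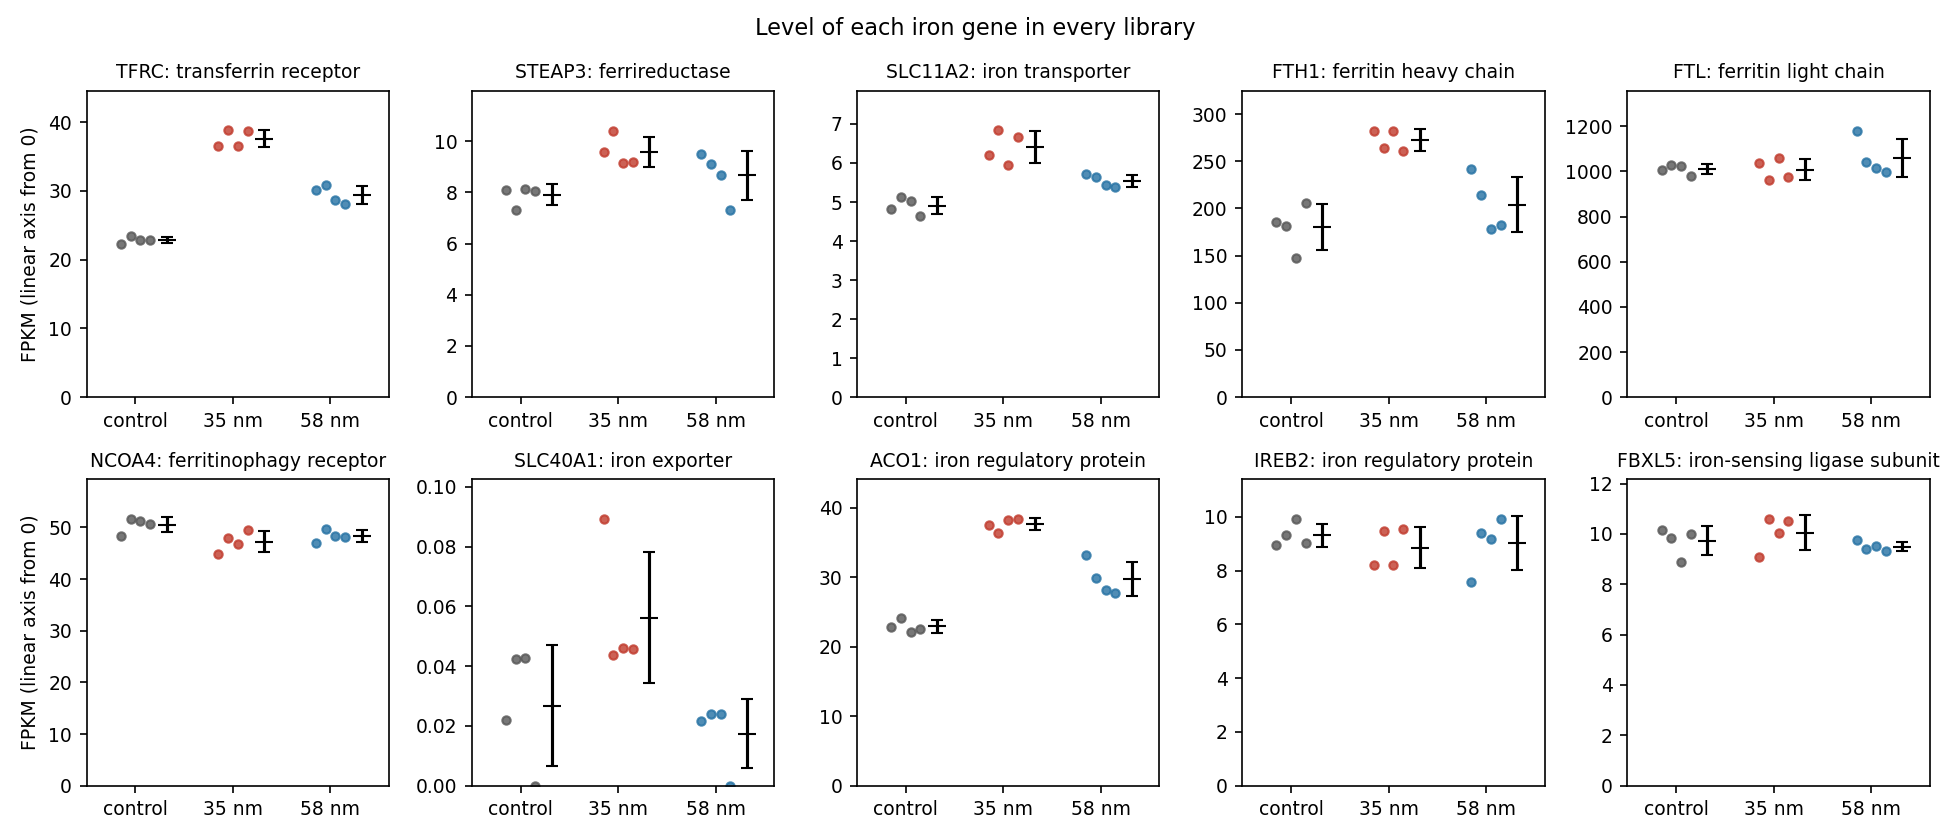
FPKM of each of the 10 genes in every library (points, 4 per group) with the mean and SD of each group (black bar and whiskers), on linear axes that start at 0. TFRC, ACO1 and SLC11A2 form 3 separate levels, with control lowest, 58 nm between and 35 nm highest, whereas the 3 groups of FTL, NCOA4, IREB2 and FBXL5 overlap.

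At 35 nm, 5 of the 9 tested members rose against control and 0 fell: the receptor TFRC, the sensor ACO1, the ferritin heavy chain FTH1 and the uptake genes SLC11A2 and STEAP3. The words rose and fell are used where limma's two-sided test on log2(FPKM + 1), adjusted by the Benjamini-Hochberg method over 12176 genes, gave an adjusted p under 0.05. Among all genes tested, 20.2% rose and 15.2% fell in this comparison, so calls were common there. The same 5 members had groups that did not overlap, beside 36.0% of all genes. At 58 nm, 2 of 9 rose against control (TFRC and ACO1) and 0 fell, where 2.18% of all genes rose and 1.95% fell. Groups did not overlap for 3 of 9 members, beside 13.5% of all genes. Between the particles, 4 of 9 were lower at 58 nm than at 35 nm (TFRC, ACO1, FTH1 and SLC11A2) and 0 were higher, where 7.81% of all genes were lower and 3.54% higher. Groups did not overlap for these 4, beside 16.2% of all genes. The median log2 difference of the 9 members was 0.25 at 35 nm, 0.11 at 58 nm and -0.14 between the particles, and that of all genes was 0.00, 0.01 and 0.00. The split of all calls between higher and lower depended on the scaling: 57.1% were higher at 35 nm and 31.2% between the particles, against 44.7% and 48.2% after upper-quartile rescaling, while at 58 nm 52.7% were higher, against 42.2% after quantile normalization. The split of the members moved too. At 35 nm, 5 members rose and 1 fell after upper-quartile rescaling and with length and GC trends removed. After quantile normalization 6 rose and 1 fell, and 1 also fell without control library 1 or without 35 nm library 4. Between the particles, 4 members were lower and 1 higher with length and GC trends removed. The comparisons share libraries, so their values stand side by side and are not independent of each other. In these bulk libraries, a change in the make-up of the cells and a change in RNA per cell cannot be told apart.

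**Figure D2:**
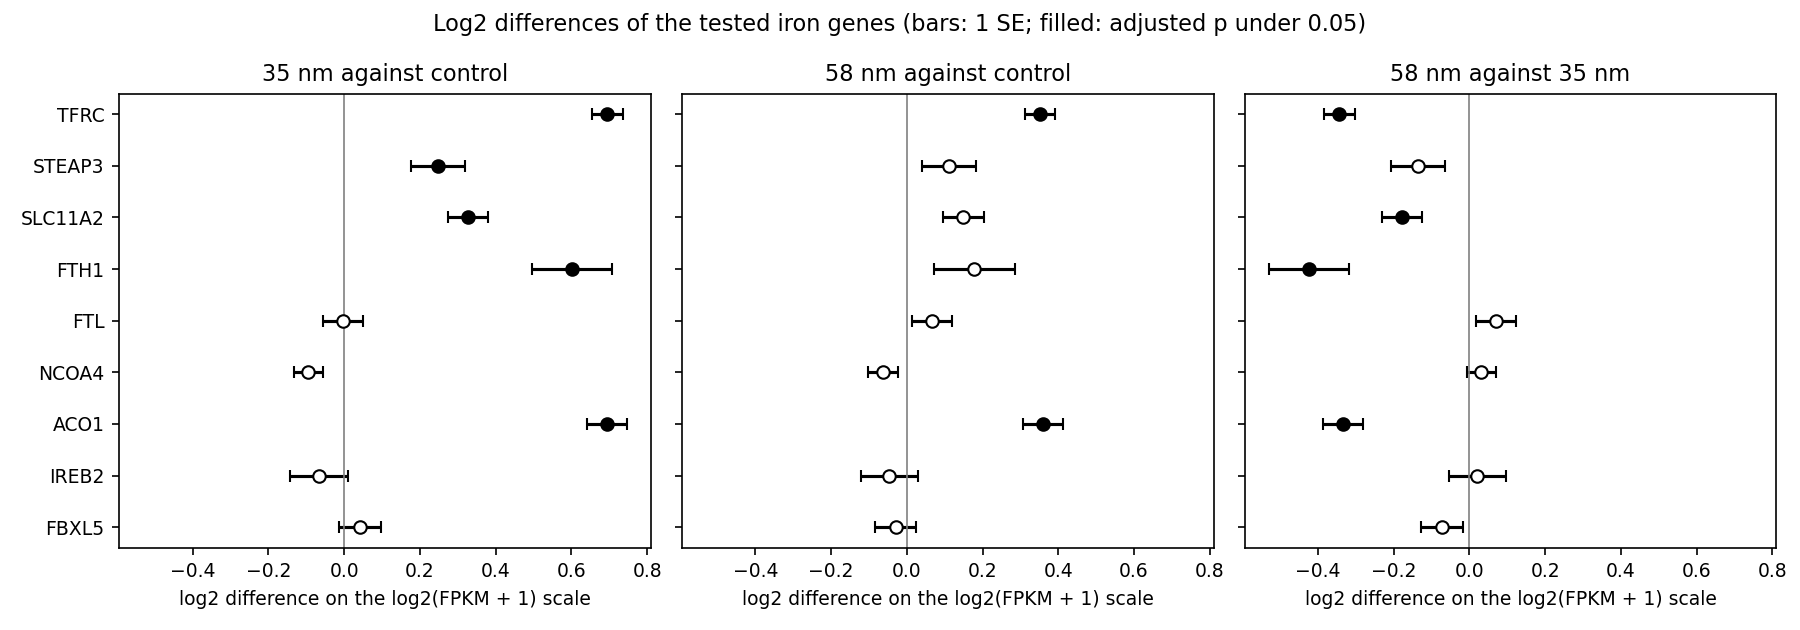
Log2 differences on the log2(FPKM + 1) scale for the 9 tested genes in the 3 comparisons, with bars of 1 SE from limma and filled points where the adjusted p was under 0.05. The 5 filled points at 35 nm lie between 0.25 and 0.70, and at 58 nm only those of TFRC and ACO1 are filled, at 0.35 and 0.36.

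TFRC, the receptor that brings in transferrin-bound iron, gave 22.3, 23.5, 22.8 and 22.8 FPKM in the 4 control libraries. It gave 36.5, 38.8, 36.5 and 38.7 FPKM at 35 nm, and 30.1, 30.9, 28.7 and 28.1 FPKM at 58 nm. The 3 groups did not overlap, with every 58 nm library above every control and below every 35 nm library. The ratio of means was 1.65 at 35 nm, a log2 difference of 0.70 with SE 0.04 (adjusted p = 1.94e-07), which was the 13th smallest p among all genes tested. At 58 nm the ratio was 1.29 (log2 difference 0.35, adjusted p = 0.000185), and TFRC was lower at 58 nm than at 35 nm by a log2 difference of -0.34 (adjusted p = 0.000328). These 3 calls held under each of the 24 alternatives, and without library 1 of the 58 nm group the 58 nm difference was 0.34. Some of the 24 could not move a given difference, such as added pseudogene reads, which alter only FTH1 and FTL. TFRC rested on 1842 to 3227 reads per library.

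SLC11A2 (DMT1), the divalent metal transporter of the endosome, gave 4.82, 5.14, 5.01 and 4.64 FPKM in controls. The 35 nm libraries gave 6.20, 6.83, 5.95 and 6.66 FPKM and the 58 nm libraries 5.71, 5.64, 5.44 and 5.39 FPKM. Here too the 3 groups did not overlap, with 58 nm in between. The rise at 35 nm was 0.33 with SE 0.05 on the log2 scale (adjusted p = 0.000528) and held under 24 of 24 alternatives. At 58 nm the difference of 0.15 was not called (adjusted p = 0.137), with 1 of 24 alternatives calling it. SLC11A2 was lower at 58 nm than at 35 nm by a log2 difference of -0.18 (adjusted p = 0.0484), a call that was lost in 15 of 24 alternatives, where the adjusted p reached 0.123.

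STEAP3, the endosomal ferrireductase, gave 8.11, 7.32, 8.14 and 8.07 FPKM in controls and 9.59, 10.4, 9.13 and 9.19 FPKM at 35 nm. Its 58 nm libraries gave 9.51, 9.11, 8.69 and 7.32 FPKM and overlapped both other groups. All 35 nm libraries lay above all controls, and the rise was 0.25 with SE 0.07 on the log2 scale (adjusted p = 0.0162). Without control library 2, the lowest of its group, the difference was 0.21 with an adjusted p of 0.0514, and with length and GC trends removed it was 0.12 with an adjusted p of 0.182. STEAP3 shares 500 exon bases with STEAP3-AS1 on the other strand, whose row averaged 0.0222 FPKM.

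FTH1, the ferritin heavy chain with the ferroxidase site that loads iron, gave 186, 181, 148 and 206 FPKM in controls. The 35 nm libraries gave 283, 264, 282 and 260 FPKM, all above the controls, and the 58 nm libraries 241, 214, 179 and 182 FPKM, which overlapped the controls and lay below the 35 nm group. FTH1 rose at 35 nm by 0.60 with SE 0.11 on the log2 scale (adjusted p = 0.00116), a ratio of means of 1.51. This call held under 24 of 24 alternatives, but the size of the difference varied from 0.39 to 0.67, with an adjusted p of up to 0.0129. At 58 nm the difference of 0.18 with SE 0.11 was not called (adjusted p = 0.381), and without library 1 of that group it was 0.09. FTH1 was lower at 58 nm than at 35 nm by a log2 difference of -0.42 (adjusted p = 0.0249), and 6 of 24 alternatives lost this call, with an adjusted p of up to 0.0881. Control library 3 and 58 nm library 1 were the extremes of their groups, so the spread of FTH1 was wider than that of TFRC or ACO1.

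Ferritin genes have many pseudogene copies that can share reads. Rows of 25 FTH1 pseudogenes held 641 reads in all libraries together, 0.799% to 2.32% of the reads of FTH1 and its pseudogenes per library. With these reads added, FTH1 stood at 380 ± 49.8 reads per 1000000 gene reads in the control group (SD, n = 4), 560 ± 20.7 in the 35 nm group and 426 ± 60.5 in the 58 nm group. The 35 nm libraries, at 538 to 580, still lay above the controls, at 312 to 431. BEST1, on the other strand, shares 1267 bases with the exons of FTH1 (62.4%). Its own row averaged 0.119 FPKM, and without strand information reads from the shared stretch cannot be told apart.

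FTL, the ferritin light chain that helps nucleate the iron core, gave 1006, 1029, 1022 and 979 FPKM in controls, 1037, 961, 1057 and 973 FPKM at 35 nm, and 1181, 1042, 1014 and 998 FPKM at 58 nm. The 3 groups overlapped, and library 1 of the 58 nm group was the highest. Its log2 difference was 0.00 with SE 0.05 at 35 nm (adjusted p = 0.966) and 0.07 at 58 nm (adjusted p = 0.523), and no call was made. Without library 1 of the 58 nm group, the 58 nm difference was 0.01. Between the particles the difference of 0.07 was not called either (adjusted p = 0.411), while 2 of 24 alternatives called it higher and 1 called it lower. The direction of FTL depended on the scaling: at 35 nm it was 0.18 after quantile normalization (adjusted p = 0.000114) and -0.18 with length and GC trends removed (adjusted p = 0.000119).

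NCOA4, the receptor that delivers ferritin to lysosomes, gave 48.4, 51.6, 51.3 and 50.7 FPKM in controls, 44.8, 47.9, 46.8 and 49.5 FPKM at 35 nm, and 46.9, 49.7, 48.3 and 48.2 FPKM at 58 nm. The groups overlapped, and the treated means differed from the control mean by -6.44% and -4.36%. The log2 difference at 35 nm was -0.09 with SE 0.04 (adjusted p = 0.0738), and 6 of 24 alternatives called it lower, with an adjusted p down to 0.00322.

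SLC40A1, the iron exporter, was close to absent in every group, with 5 reads over the 4 control libraries, 10 over the 35 nm libraries and 3 over the 58 nm libraries. No library held more than 4 of its reads, and its highest value was 0.0892 FPKM. It did not pass the filter on low values and was not tested, and at this depth no difference between groups could be read from it, although its 35 nm libraries, with 2 to 4 reads each, did not overlap the other groups in FPKM.

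ACO1, the cytosolic aconitase that becomes iron regulatory protein 1 when it lacks its iron-sulfur cluster, gave 22.9, 24.1, 22.0 and 22.6 FPKM in controls. It gave 37.6, 36.4, 38.3 and 38.4 FPKM at 35 nm and 33.2, 29.8, 28.2 and 27.7 FPKM at 58 nm. The 3 groups were again separate and in the same order as those of TFRC. ACO1 rose at 35 nm by 0.69 with SE 0.05 on the log2 scale (adjusted p = 1.23e-06) and at 58 nm by 0.36 (adjusted p = 0.00150). It was lower at 58 nm than at 35 nm by a log2 difference of -0.33 (adjusted p = 0.00191). Each call held under 24 of 24 alternatives, and without library 1 of the 58 nm group, its highest, the 58 nm difference was 0.31.

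IREB2, the other iron regulatory protein, gave 8.94, 9.34, 9.92 and 9.04 FPKM in controls, 8.19, 9.49, 8.20 and 9.55 FPKM at 35 nm, and 7.58, 9.41, 9.17 and 9.92 FPKM at 58 nm. The groups overlapped throughout, and library 1 of the 58 nm group was the lowest of all 12. Its log2 difference was -0.07 with SE 0.08 at 35 nm (adjusted p = 0.528) and -0.05 at 58 nm (adjusted p = 0.785). Without library 1 of the 58 nm group, the 58 nm difference turned to 0.03. With length and GC trends removed, the 35 nm difference turned to 0.14 with an adjusted p of 0.0359.

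FBXL5, whose product binds iron and targets IREB2, gave 10.2, 9.86, 8.89 and 10.01 FPKM in controls, 9.08, 10.6, 10.03 and 10.5 FPKM at 35 nm, and 9.76, 9.41, 9.53 and 9.31 FPKM at 58 nm. The groups overlapped, and the log2 differences of 0.04 at 35 nm (adjusted p = 0.587) and -0.03 at 58 nm (adjusted p = 0.814), each with SE 0.06, were not called under any of the 24 alternatives.

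Ratios between members within a library set the pairs side by side. The FPKM ratio of TFRC to ACO1 lay between 0.972 and 1.04 in the control group. It lay between 0.954 and 1.07 with 35 nm particles and between 0.907 and 1.04 with 58 nm particles, so it varied little between libraries. Its size depends on the lengths used, which were exon unions of 7887 bases for TFRC and 7555 for ACO1. TFRC-201 has 5111 bases and ACO1-201 has 7466, so a ratio per transcript would differ. The ratio of ACO1 to IREB2 was 2.22 to 2.58 in controls and 3.84 to 4.67 at 35 nm. At 58 nm it was 2.79 to 3.17 in libraries 2 to 4 and 4.38 in library 1, above all controls. The ratio of FTH1 to FTL was 0.144 to 0.210 in the control group, 0.266 to 0.275 with 35 nm particles and 0.176 to 0.206 with 58 nm particles. The 35 nm libraries lay above both other groups in this ratio, and the 58 nm libraries lay within the control range. The ratio of TFRC to FTH1 also overlapped between all groups, at 0.111 to 0.155 in control libraries. It was 0.129 to 0.149 with 35 nm particles and 0.125 to 0.161 with 58 nm particles. These ratios were described and not tested.

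**Figure D3:**
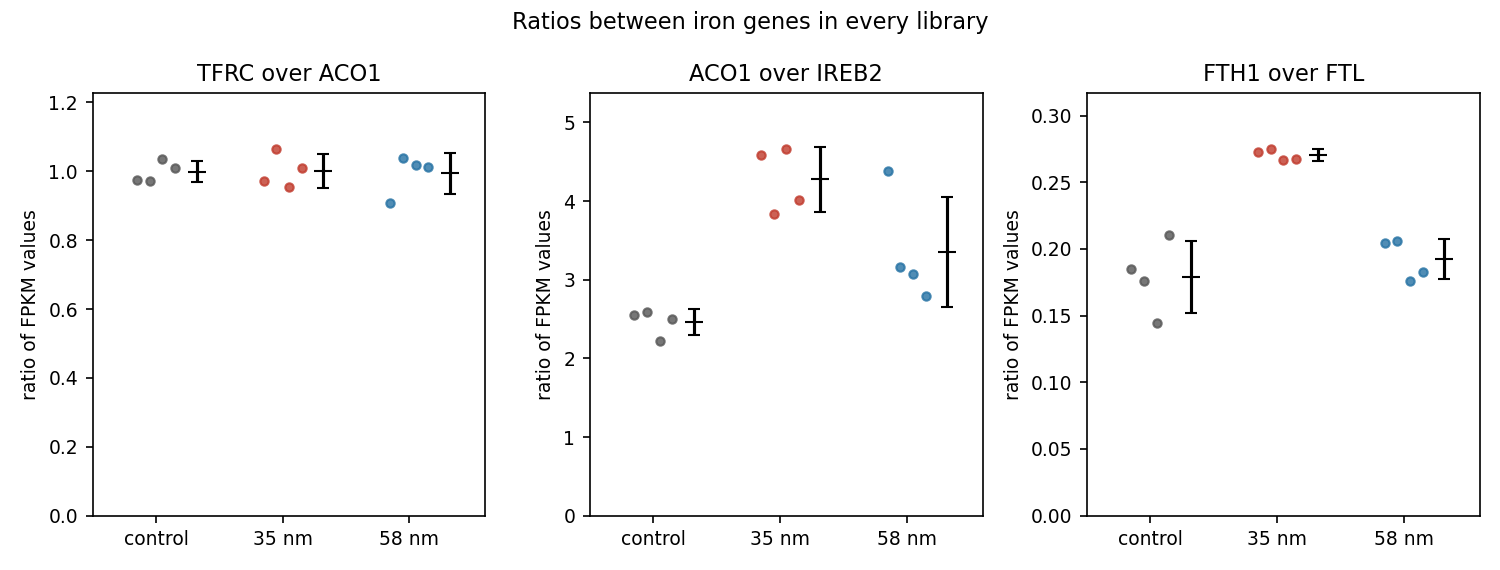
Ratios of FPKM values in every library (points) with the mean and SD of each group (black bar and whiskers), on linear axes from 0. TFRC over ACO1 stays between 0.907 and 1.07 in all 12 libraries, while FTH1 over FTL is 0.266 to 0.275 at 35 nm and at most 0.210 elsewhere.

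The genes whose profile was nearest to that of TFRC were found by the root-mean-square difference in log2(FPKM + 1), each gene relative to its control mean, over the 12 libraries and 7663 other genes that averaged at least 5 FPKM. ACO1 was the nearest of all 7663, at 0.06 log2 units. GREM1, MARCHF4, MGLL and SMTN followed, at 0.07 to 0.08. GREM1, a secreted BMP antagonist, stood at 20.4 ± 1.14 FPKM in control, 33.5 ± 1.59 in 35 nm and 24.5 ± 0.844 in 58 nm libraries (SD, n = 4), and MGLL, a monoacylglycerol lipase, at 16.3 ± 0.572, 25.9 ± 0.705 and 20.3 ± 0.825 FPKM. Among the other members, FTH1 ranked 165, SLC11A2 541, STEAP3 1227 and IREB2 5274 in nearness to TFRC. The 5 genes nearest to FTH1 were UQCRH, CDC37, RPL41, SERF2 and EIF6, at 0.06 to 0.09 log2 units. UQCRH, a subunit of respiratory complex III, stood at 38.4 ± 4.84, 61.8 ± 5.42 and 43.8 ± 5.80 FPKM in the same 3 groups. In control library 3 these 5 genes and FTH1 all lay below their control means. Nearness was measured on the values that are described here and carries no test.

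**Figure D4:**
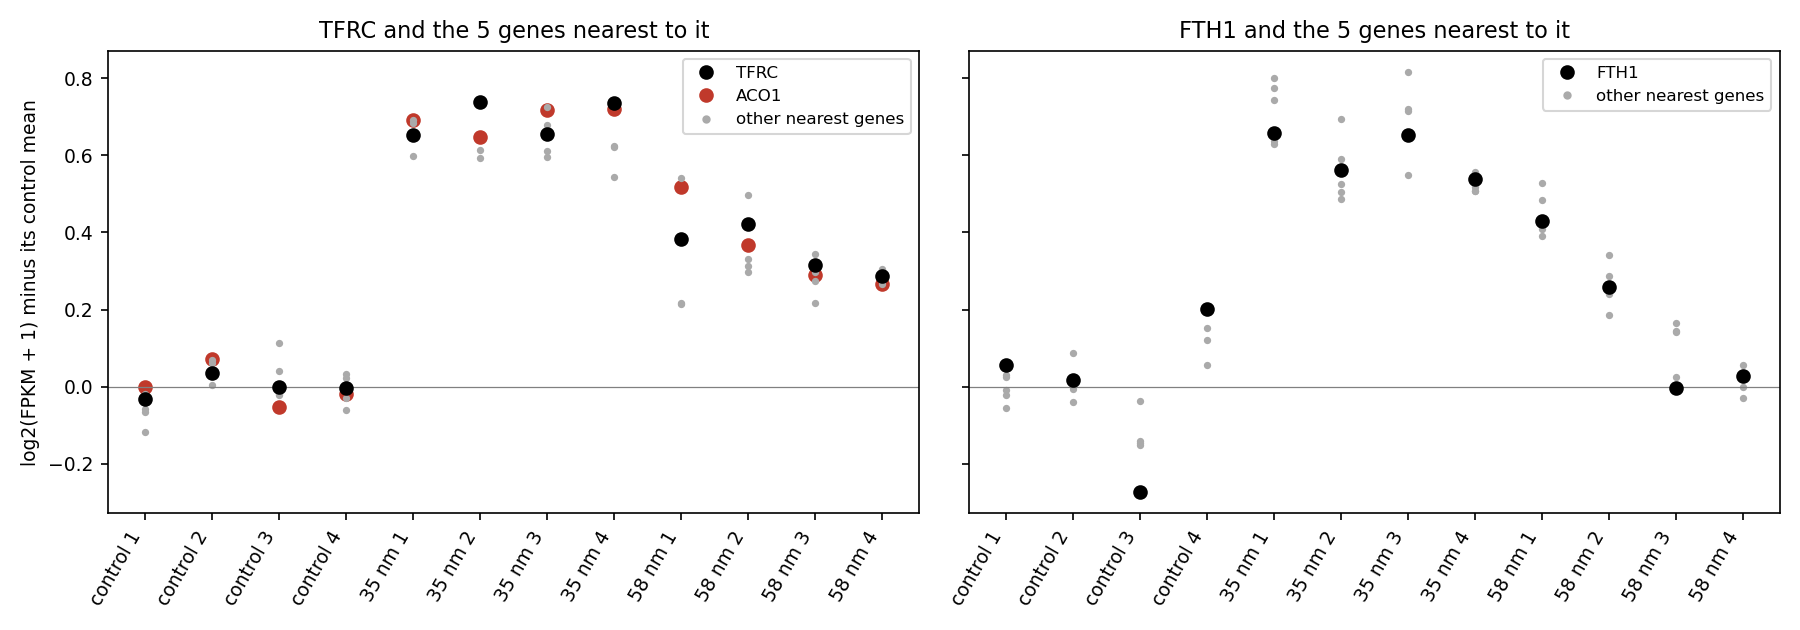
Level of TFRC (left) and FTH1 (right) in each library, as log2(FPKM + 1) minus the gene's control mean, with the 5 genes nearest to each over 12 libraries. ACO1 (red), the gene nearest to TFRC at a root-mean-square distance of 0.06, lies close to it in all 3 groups. In control library 3, FTH1 lies at -0.27 and the genes near it lie below their control means by unlike amounts, from -0.27 (UQCRH) to -0.04 (EIF6).

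Other genes of iron metabolism went both ways. Of 107 other genes in 7 lists, 84 were tested. At 35 nm, 25 rose (29.8%) and 7 fell (8.33%), beside 20.2% and 15.2% of all genes. This split depended on the scaling, with 16 higher and 11 lower after upper-quartile rescaling, 20 and 10 after quantile normalization, and 19 and 11 with length and GC trends removed. At 58 nm, 0 rose and 1 fell (0% and 1.19%), beside 2.18% and 1.95% of all genes, so calls were few there in any case. Between the particles 4 were higher (CYBRD1, SMAD6, ID1 and PFN2) and 12 lower at 58 nm (4.76% and 14.3%, beside 3.54% and 7.81% of all genes). The split between the particles was 6 and 9 after upper-quartile rescaling, 6 and 8 after quantile normalization and 8 and 10 by limma-voom. The shares of the single lists below are read against the same 20.2% and 15.2% of all genes at 35 nm. The median log2 difference of the 84 was 0.11 at 35 nm and 0.02 at 58 nm.

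Other uptake genes went both ways at 35 nm, with 2 of 10 tested genes higher (20.0%) and 3 lower (30.0%), beside 20.2% and 15.2% of all genes. SLC39A14 (ZIP14), a transporter of iron not bound to transferrin, rose from 27.7 ± 1.28 FPKM in controls to 35.5 ± 1.56 at 35 nm (log2 difference 0.35, adjusted p = 0.000190) and stood at 28.4 ± 1.56 FPKM at 58 nm. MELTF, a membrane-bound transferrin homologue, rose from 7.86 ± 0.813 to 9.13 ± 0.337 FPKM, a call lost in 7 of 24 alternatives. CYBRD1, a ferric reductase of the plasma membrane, fell from 66.5 ± 1.79 to 47.3 ± 1.47 FPKM at 35 nm (log2 difference -0.48, adjusted p = 2.83e-06) and was higher at 58 nm, at 60.3 ± 2.62 FPKM, than at 35 nm (adjusted p = 0.000296). The mitochondrial iron importers SLC25A37 and SLC25A28 fell to 15.1 ± 0.384 and 17.7 ± 1.47 FPKM at 35 nm, from 19.0 ± 0.425 and 23.3 ± 3.98, and the call of SLC25A28 was lost in 2 of 24 alternatives (adjusted p up to 0.0535). SLC25A37 was the 1 gene of all 7 lists called at 58 nm, where it fell to 15.8 ± 0.670 FPKM (log2 difference -0.25, adjusted p = 0.00373). TF, which encodes transferrin, and TFR2 averaged 0.00483 and 0.00794 FPKM. On the export side, HAMP (hepcidin) was listed at 0, the ferroxidases CP and HEPH averaged 0.0134 and 0.00116 FPKM, and ERFE, which encodes a hormone that lowers hepcidin, and SMAD7, an inhibitor of BMP signalling, rose at 35 nm (adjusted p = 0.0462 and 0.0274). The call of ERFE was lost in 13 of 24 alternatives (adjusted p up to 0.419) and that of SMAD7 in 6 of 23 (adjusted p up to 0.239).

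Among iron chaperones and genes of ferritin turnover, 3 of 8 rose at 35 nm (37.5%, beside 20.2% of all genes) and 1 fell. PCBP1, which hands iron to ferritin, rose from 71.7 ± 3.88 to 105 ± 6.68 FPKM (log2 difference 0.54, adjusted p = 9.09e-05) and stood at 78.9 ± 7.69 FPKM at 58 nm. Its relative PCBP2 fell from 29.2 ± 1.05 to 26.2 ± 1.85 FPKM (adjusted p = 0.0378) with overlapping groups, and 10 of 24 alternatives lost this call (adjusted p up to 0.152). ZC3H12A, an RNase known from mice to degrade the TFRC transcript, rose from 3.12 ± 0.272 to 6.76 ± 0.616 FPKM (log2 difference 0.91, adjusted p = 4.67e-05) and was at 3.98 ± 0.895 FPKM at 58 nm. RBX1, a subunit of cullin ligases, rose by 0.16 on the log2 scale (adjusted p = 0.0421), but 14 of 24 alternatives lost the call, with differences down to 0.08 and adjusted p up to 0.270.

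Of 18 heme genes, 4 rose at 35 nm (22.2%, near the 20.2% of all genes) and 0 fell. Among them were UROD, an enzyme of heme synthesis, at 29.3 ± 0.931 FPKM against 23.4 ± 0.897 in controls, and the heme oxygenases HMOX2 (log2 difference 0.33, adjusted p = 0.00122) and HMOX1 (0.31, adjusted p = 0.00682), of which HMOX1 was added after its values were seen and lost its call in 1 of 24 alternatives (adjusted p = 0.272). In iron-sulfur cluster assembly, 7 of 25 rose (28.0%, beside 20.2% of all genes) and 2 fell. CIAO2B, of the cytosolic targeting complex, rose from 23.4 ± 1.90 to 39.6 ± 3.87 FPKM (adjusted p = 0.000136) and the glutaredoxin GLRX5 from 15.3 ± 0.784 to 19.4 ± 1.93 FPKM (adjusted p = 0.00202), while the scaffold ISCU fell from 17.4 ± 0.526 to 15.02 ± 0.872 FPKM (adjusted p = 0.00711) and CISD2, added after its values were seen, from 6.07 ± 0.475 to 4.86 ± 0.758 FPKM (adjusted p = 0.0392, lost in 9 of 24 alternatives). Of 13 ferroptosis genes, 5 rose at 35 nm (38.5%, beside 20.2% of all genes) and 0 fell, among them AIFM2 (FSP1), a reductase of coenzyme Q, from 7.02 ± 0.676 to 9.23 ± 0.701 FPKM (adjusted p = 0.00146). POR, VDAC3 and, added after its values were seen, SLC3A2 also rose, with log2 differences of 0.12 to 0.24. These calls were lost in 4 (POR), 11 (VDAC3) and 6 (SLC3A2) of 24 alternatives, where the adjusted p reached 0.264, 0.412 and 0.144.

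Among 5 tested transcripts outside the set that are known to carry an iron-responsive element, 2 rose at 35 nm (40.0%, beside 20.2% of all genes) and 1 fell. EPAS1 (HIF-2 alpha) rose from 74.9 ± 1.66 to 86.6 ± 3.18 FPKM (log2 difference 0.21, adjusted p = 0.00141), which quantile normalization lowered to 0.06 (adjusted p = 0.236). PFN2 (profilin 2) fell from 22.4 ± 0.672 to 18.9 ± 0.850 FPKM (adjusted p = 0.000629). ALAS2 averaged 0.0116 FPKM and HAO1 was listed at 0.

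**Figure D5:**
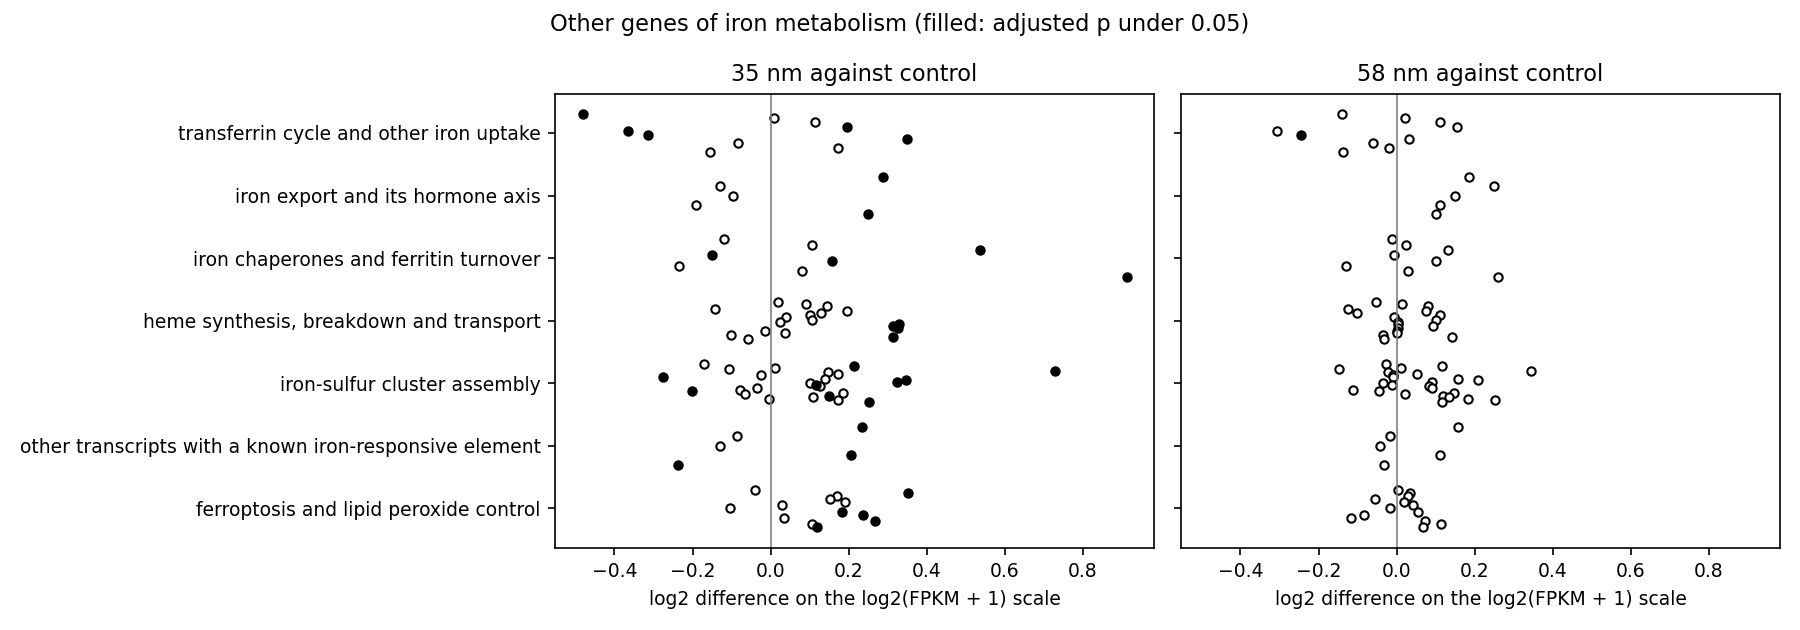
Log2 differences on the log2(FPKM + 1) scale of the 84 tested genes outside the set, by list, at 35 nm (left) and 58 nm (right) against control, with filled points where the adjusted p from limma was under 0.05. At 35 nm 25 points are filled to the right of 0 and 7 to the left, and at 58 nm the 1 filled point is SLC25A37. Among all genes tested, 2.18% rose and 1.95% fell at 58 nm.

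Summed markers of other cell types were compared as a check beside these results. Epithelial markers, 3 of 6 of which averaged at least 1 FPKM (KRT18 at 44.0 FPKM), summed to 52.3 to 56.4 FPKM in control libraries, 41.6 to 50.2 in 35 nm libraries and 46.1 to 55.3 in 58 nm libraries, so the 35 nm libraries lay below the controls, with CDH1 at 0 in every library. Pericyte markers summed to 38.1 to 40.2, 36.9 to 41.5 and 39.1 to 41.7 FPKM in the same order of groups, but both main ones were without overlap at 35 nm, in opposite directions: PDGFRB was at 22.7 to 25.5 FPKM in control and 17.7 to 20.1 in 35 nm libraries, and CSPG4 at 13.8 to 14.9 and 16.8 to 20.2 FPKM. Endothelial markers summed to 125 to 133, 120 to 134 and 126 to 142 FPKM, most of it ENG, while MCAM did not overlap between control (10.4 to 11.6 FPKM) and either treated group (14.3 to 16.9 at 35 nm and 13.6 to 17.1 at 58 nm). Markers of astrocytes, neurons, macrophages and red cells each summed to at most 1.78 FPKM in every library. The part of these markers and of the mitochondrial share in the changes of the iron genes was not tested.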

How the data were processed

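The authors deposited 1 table of FPKM values for 58735 genes in 12 libraries, each with its gene length (per the file headers). Bowtie 0.12.2 and hg19 were used, per the submitters' processing notes, but the identifiers, positions and lengths of all 58735 genes equal GENCODE 29, an annotation of GRCh38, so coordinates are given in GRCh38 and the alignment build is not settled. Neither the counting tool nor the handling of strand and multiply aligned reads is given in the sources used here. FPKM times length gave whole reads for 100% of values within 0.01 reads.

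Genes averaging at least 1 FPKM (12176) were fitted as 3 group means on log2(FPKM + 1) over the 12 libraries by limma 3.58.1 (R 4.3.3, trended and robust prior), with p-values adjusted by the Benjamini-Hochberg method over all of them. The pseudocount of 1 understates changes of low genes, SLC11A2 among the members. The script was checked on simulated data. Replicate numbers were not used as pairs, since the labels state no pairing. Same-numbered libraries of different groups correlated in their deviations by -0.0650 to 0.159, and 1 of 12 pairs exceeded 0.1. Libraries of unlike number correlated by -0.156 to 0.1145, and 2 of 36 pairs exceeded 0.1. These values cannot settle whether the libraries were paired. The table held 27 gene names turned into dates, MARCHF4 among them, which were named again by identifier.

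The members and lists were chosen with earlier results of these data known. All members were named. In each other list up to 3 tested genes with the smallest p in either comparison with control could be named, and any gene of the uptake and export lists. Some genes that this rule selects are not reported here. Hairpins were searched in GENCODE 29 transcripts. Alternatives were other scalings, pseudocounts, filters, removal of length and GC trends, a replicate block, added pseudogene reads, each library left out, and limma-voom.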

Additional observations from a re-analysis of the deposited data

Results flagged for a closer look

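In each group of 4 libraries, the highest or lowest value was set against Dixon's critical value, for 135 groups, and 9 passed. Chance alone flags about 1 in 20 groups. Among the 10 members, SLC40A1 in 35 nm library 1 gave 0.0892 FPKM beside 0.0438 to 0.0462 in the others, and 58 nm library 4 gave 0 beside 0.0217 to 0.0241, which are differences of 1 or 2 reads. STEAP3 in control library 2 gave 7.32 FPKM beside 8.07 to 8.14, and without that library its adjusted p at 35 nm against control was 0.0514.

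Among the other iron genes, SMAD6 gave 4.42 FPKM in control library 1 beside 3.68 to 3.79. ID1 gave 67.4 FPKM in 58 nm library 1 beside 51.2 to 52.1, and FLVCR1 gave 2.96 FPKM in the same library beside 3.35 to 3.37. POR gave 11.9 FPKM in 35 nm library 3 beside 10.4 to 10.6, and VDAC3 gave 32.3 FPKM in 35 nm library 2 beside 33.3 to 33.4. MELTF gave 9.32 FPKM in 58 nm library 1 beside 8.65 to 8.69.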

How the results depend on the processing

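For the 27 member results, 648 alternative values were computed. Of these, 612 stayed on the same side of the threshold, 23 lost a call, 10 gained one and 3 reversed with a call in the alternative. The 612 include uncalled values that changed sign, as for IREB2 at 58 nm against control, which lay between -0.09 and 0.05. They also include values that an alternative could not move, since added pseudogene reads alter only FTH1 and FTL. Leaving out a library of the group outside a comparison kept the difference and changed only its p-value. The reversals were FTL after quantile normalization, at 0.18 for 35 nm against control and -0.18 for 58 nm against 35 nm, and IREB2 with length and GC trends removed, at 0.14 for 35 nm against control. The cause was not tested. No call of TFRC or ACO1 was lost in any alternative run.

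Counts over all genes fell without a filter on low values, to 252 from 503 for 58 nm against control and to 723 from 1382 for 58 nm against 35 nm, where more genes share the adjustment. In that setting 2 members were called for 58 nm against 35 nm, as were 19 other iron genes for 35 nm against control and 9 for 58 nm against 35 nm. For 58 nm against control, 2 other iron genes were called after quantile normalization, with a minimum of 5 FPKM and with length and GC trends removed, and 3 by limma-voom on the recovered reads, which was chosen after seeing the data. Leaving out 1 library at a time, calls over all genes ranged from 3482 to 4682 for 35 nm against control, 230 to 558 for 58 nm against control and 723 to 2324 for 58 nm against 35 nm. Members called ranged from 4 to 6, from 2 to 2 and from 2 to 4, and other iron genes from 21 to 35, from 1 to 2 and from 11 to 23. With a replicate block, which the main fit leaves out, 4187, 453 and 1272 genes were called, and 5, 2 and 3 members, SLC11A2 losing its call for 58 nm against 35 nm. The share of calls that were higher moved by over 10 percentage points from 57.1% to 44.7% for 35 nm against control (upper-quartile rescaling), from 52.7% to between 34.8% and 42.3% for 58 nm against control (7 alternatives, among them quantile normalization and trend removal) and from 31.2% to between 43.8% and 48.2% for 58 nm against 35 nm (3 alternatives). The planned edgeR and DESeq2 alternatives were not run, because the deposited values are FPKM, although whole reads could be recovered from them. Limma-voom on those recovered reads was added instead.

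With 4 libraries a group of 1 cell line, no check on separate cultures is possible. Reads that ferritin genes share with their copies or with genes on the other strand cannot be assigned, gene-level values do not separate transcripts, and SLC40A1 was too scarce to compare.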
